A study of Mus musculus with 16 samples.

Results

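The AMLN diet, which is rich in fat, fructose and cholesterol, was compared with a low-fat (LF) diet in the livers of TSP1ΔPf4 mice, which lack thrombospondin 1 in platelets. The comparison takes in every gene of the authors' table for these 8 livers, 4 on each diet: 3399 of the 5205 genes found in at least 1 of the study's 2 tables. The other table sets the same diets against each other in TSP1F/F mice and holds 2558 genes. Of the 3399 genes, 752 are in both tables and 2647 are in the TSP1ΔPf4 table alone. Every listed gene had an unadjusted p under 0.05 for the diets in the authors' test of these same mice. The p-values below therefore describe genes already selected, and they add nothing independent of that selection.

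All mice were male, on a C57BL6 background, and carried floxed Tsp1 (Thbs1) alleles. TSP1ΔPf4 mice carried in addition a Pf4-Cre transgene, whose promoter is active in megakaryocytes and platelets, and their TSP1F/F littermates served as controls. The paper's supplement lists the mice with an age of 8 weeks, and each diet was given for 32 weeks. Each liver gave 1 library of total RNA, and the livers are called LF 1 to LF 4 and AMLN 1 to AMLN 4 after the numbers of the deposited columns. Values per liver are given in this order throughout. Library totals were 18826700, 20700888, 17127965 and 18849667 on LF and 29976419, 24319981, 31363462 and 23221536 on AMLN. The listed genes took 48.8, 45.8, 65.3 and 51.0% of these totals in the LF livers and 31.8, 32.6, 29.9 and 35.8% in the AMLN livers, so LF 3 gave the highest share and no AMLN liver reached the lowest LF value. Thbs1 and Alb are not analysed here, so the deletion is not checked by these values. Hepatocyte markers were abundant in each liver: Apoa1, which encodes the main protein of high-density lipoprotein, had 13108, 14272, 23277 and 18841 CPM on LF and 10209, 5014, 6943 and 10917 on AMLN, where CPM are counts scaled to the library total. Changes are given as log2 fold changes with their standard error (SE).

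The AMLN diet is used in mice as a model of steatohepatitis, in which hepatocytes store lipid droplets while macrophages and matrix accumulate. Kupffer cells, the resident macrophages of the liver, and macrophages derived from blood monocytes take up lipid and dying cells, and MHC class II molecules on such cells present peptides to T cells. Platelets store thrombospondin 1 in their alpha granules and release it on activation, and the protein binds matrix components and the receptors CD36 and CD47.

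Of the 3399 genes, 3089 had enough counts to be tested and 310 did not (177 of those were higher and 133 lower on AMLN). On the AMLN diet 45 genes were raised (1.46% of those tested) and 47 were lowered (1.52%), 92 in all (2.98%), at an adjusted p under 0.05 (edgeR quasi-likelihood test, QL, with the method of Benjamini and Hochberg) and a log2 fold change beyond 0.25 in size, thresholds taken from the study. At an unadjusted p under 0.05 the edgeR test gave 1045 genes higher (33.8%) and 1604 lower (51.9%). Among all 3399 genes the 4 AMLN livers lay wholly above the 4 LF livers in 726 (21.4%) and wholly below in 929 (27.3%), and each of the 92 called genes was of this kind. Called changes were large, with no absolute log2 fold change under 1.03 and adjusted p from 0.00590 to 0.04998 by edgeR and Benjamini-Hochberg. Raised genes were mostly scarce and lowered genes abundant, with median levels of 10.9 and 125 CPM. The raised genes gained 1034 CPM in sum and the lowered genes fell by 70088 CPM in sum, 84.6% of it in mitochondrially encoded genes.

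The counts of called genes depended on single livers. The same test called 3 genes raised and 0 lowered without LF 2, 1 and 0 without LF 4, 9 and 0 without AMLN 1, 3 and 0 without AMLN 2, and 3 and 0 without AMLN 3. Without LF 1 it called 30 raised and 31 lowered, whereas leaving out LF 3 gave 83 and 86 and leaving out AMLN 4 gave 79 and 103. Of the 72 called genes named in the text, Adam11 alone kept its call in all 8 of these fits, and no fold change of theirs changed sign. DESeq2, with size factors from the listed genes alone, called 1010 genes raised and 366 lowered, all 92 of the edgeR calls among them. The listed genes had been selected by the authors' DESeq2 test of the same mice. DESeq2 calls here and below are therefore not independent of that selection and are no second line of evidence. The median log2 fold change of the 3089 genes was -0.54 with library totals, and it was higher by 0.36 with TMM and by 0.34 with DESeq2's size factors, so directions below are relative to the library total. TMM and DESeq2's size factors were both computed over the selected genes, which were mostly lower, and not over all genes. Raised genes made up 48.9% of the calls with library totals, 81.6% with TMM, 73.4% with DESeq2 and 24.3% with totals that leave out the mitochondrially encoded genes.

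Gpnmb, a transmembrane glycoprotein of lipid-laden macrophages, had 0.159, 0.338, 0 and 0.318 CPM on LF and 5.47, 5.67, 12.2 and 5.73 on AMLN. Even the lowest AMLN liver was far above the highest LF liver, and AMLN 3 was highest. Mmp12, a macrophage metalloprotease that degrades elastin (ENSMUSG00000049723, chr9:7344381-7369499 of mm10, forward strand), had 0.531, 0.435, 0.993 and 0.424 CPM on LF and 5.14, 6.74, 6.19 and 7.97 on AMLN, again with no overlap. The log2 fold changes were 5.09 (SE 0.60) and 3.45 (SE 0.37), with adjusted p = 0.0110 and 0.00706, edgeR QL, Benjamini-Hochberg. Without LF 4 neither Gpnmb nor Mmp12 was called (adjusted p of 0.0660 and 0.0594 by edgeR and Benjamini-Hochberg), and both calls held without any 1 of the other 7 livers.

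Csf1r, the receptor through which macrophages receive the survival factor CSF1, had 10.8, 9.03, 9.52 and 11.99 CPM on LF and 24.8, 45.6, 38.1 and 34.1 on AMLN. All 4 AMLN livers were above all LF livers. Lpl, the lipoprotein lipase made by macrophages and by steatotic hepatocytes, had 21.3, 11.01, 13.8 and 14.1 CPM on LF and 51.3, 63.1, 94.5 and 50.3 on AMLN, highest in AMLN 3. Mpeg1, a pore-forming protein of phagocytes, had 29.0, 41.4, 36.3 and 31.5 CPM on LF and 105, 104, 75.1 and 86.8 on AMLN, and Tlr13, an endosomal receptor for bacterial RNA, had 0.106, 0.290, 0.117 and 0.584 CPM on LF and 2.34, 3.37, 3.22 and 2.15 on AMLN. The diets did not overlap for any of these genes. Csf1r rose by 1.79 (SE 0.23) on the log2 scale, Lpl by 2.11 (SE 0.28), Mpeg1 by 1.42 (SE 0.21) and Tlr13 by 3.301 (SE 0.54) (adjusted p = 0.0227, 0.0227, 0.0316 and 0.0316, edgeR QL, Benjamini-Hochberg). None of Csf1r, Lpl, Mpeg1 and Tlr13 was called without LF 2, LF 4, AMLN 2 or AMLN 3, and Mpeg1 and Tlr13 not without AMLN 1 (edgeR, Benjamini-Hochberg adjusted p up to 0.128).

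**Figure D1:**
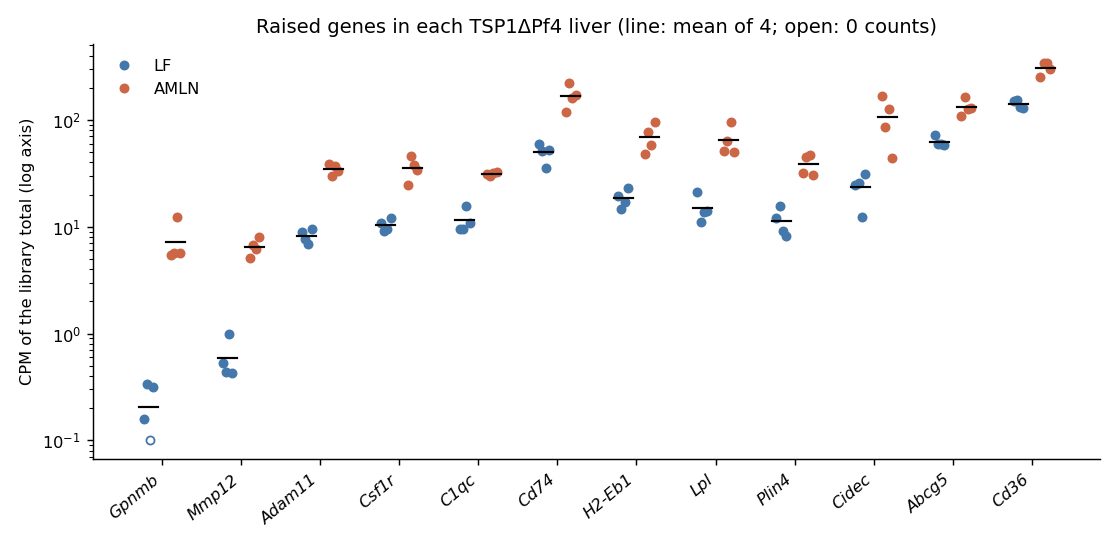
CPM (log axis) of 12 raised genes in each TSP1ΔPf4 liver, LF in blue and AMLN in red, where each point is a liver, the line is the mean of 4 and an open point has 0 counts. For each gene the 4 AMLN livers lie above the 4 LF livers, from Gpnmb at 0.204 against 7.27 CPM in the mean to Cd36 at 141 against 308.

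Of the 27 markers of monocyte-derived and lipid-associated macrophages, 15 are in the table. All 15 were higher on AMLN and 5 were called raised (Gpnmb, Mmp12, Lpl, Cd36 and Ctss), with a median log2 fold change of 1.74 beside -0.54 over all tested genes. Their summed level was 229, 225, 279 and 224 CPM on LF and 508, 592, 633 and 656 on AMLN, and Cd36 had the most counts. Trem2, a lipid receptor of such macrophages, had 0.372, 0.918, 0.993 and 1.27 CPM on LF and 3.17, 2.38, 4.97 and 3.32 on AMLN and was not called, with a log2 fold change of 1.96 (SE 0.43) and adjusted p = 0.0614, edgeR QL, Benjamini-Hochberg. Cd68 was not called either, at 1.74. Of the phagocyte receptor and oxidase genes 21 of 40 are listed, all 20 that were tested were higher, and 6 were raised. These include Itgb2, the beta chain of leukocyte integrins, at 1.81, 2.46, 2.63 and 3.71 CPM on LF and 7.11, 10.4, 8.83 and 11.4 on AMLN, and Cybb, the catalytic subunit of the phagocyte oxidase, at 7.12, 5.27, 5.02 and 3.82 CPM on LF and 11.5, 16.1, 14.1 and 16.1 on AMLN. Their log2 fold changes were 1.83 (SE 0.29) and 1.44 (SE 0.25) (adjusted p = 0.0316 and 0.0409, edgeR QL, Benjamini-Hochberg), and neither gene overlapped between the diets. None of Itgb2, Cybb, Ctss and Cd36 was called without LF 2, LF 4, AMLN 1, AMLN 2 or AMLN 3, and Ctss and Cd36 not without LF 1 (edgeR, Benjamini-Hochberg adjusted p up to 0.148). In bulk liver RNA, more or fewer cells of a type and more or less RNA per cell cannot be told apart.

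Among Kupffer cell markers, 9 of 18 are listed, 8 were higher and 3 raised (Csf1r, C1qc and Vsig4), while the scavenger receptor Cd163 went the other way. C1qc, a chain of complement C1q, had 9.61, 9.56, 15.8 and 10.9 CPM on LF and 30.9, 29.5, 31.7 and 32.3 on AMLN, and Vsig4, a complement receptor of resident macrophages, had 9.08, 10.05, 9.69 and 8.59 CPM on LF and 17.1, 23.3, 17.5 and 25.5 on AMLN, both without overlap. They rose by 1.44 (SE 0.22) and 1.16 (SE 0.21) on the log2 scale (adjusted p = 0.0316 and 0.0448, edgeR QL, Benjamini-Hochberg). Cd163, which takes up haptoglobin with haemoglobin, had 3.77, 3.19, 3.21 and 3.98 CPM on LF and 2.17, 0.617, 0.670 and 0.603 on AMLN, so AMLN 1 was the highest AMLN liver but still below each LF liver. Its log2 fold change was -1.79 (SE 0.46) and it was not called (adjusted p = 0.0844, edgeR QL, Benjamini-Hochberg), nor was C1qb, at 1.203. The 9 markers summed to 96.9, 119, 174 and 139 CPM on LF and 306, 317, 291 and 352 on AMLN, with Cd5l the most counted. Clec4f, Timd4, Marco and Folr2, which define resident Kupffer cells more narrowly, are not in the table and are not analysed here. None of C1qc, Vsig4 and Csf1r was called without LF 2, LF 4, AMLN 2 or AMLN 3, and C1qc and Vsig4 not without AMLN 1, and Vsig4 not without LF 1 (edgeR, Benjamini-Hochberg adjusted p up to 0.162).

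MHC class II genes had 1 direction. Of 14 genes taken as a class II list, 9 are in the table, all 9 were higher on AMLN and 4 were raised, with a median log2 fold change of 1.71. The 4 include Ctss, a lysosomal protease and not a class II chain, which is also counted with the macrophage markers and the lysosome genes. The promoters of 2 of the raised genes are shown because the class II genes share a promoter element, the Y box, whose core letters TGATTGG were searched on both strands of the 300 bases from 250 before to 50 after each start in RefSeq (GRCm38.p6). Letters of the match are in capitals. The H2-Eb1 window is chr17:34305617-34305916, forward strand, and that of H2-Aa is chr17:34287774-34288073, reverse strand.
H2-Eb1: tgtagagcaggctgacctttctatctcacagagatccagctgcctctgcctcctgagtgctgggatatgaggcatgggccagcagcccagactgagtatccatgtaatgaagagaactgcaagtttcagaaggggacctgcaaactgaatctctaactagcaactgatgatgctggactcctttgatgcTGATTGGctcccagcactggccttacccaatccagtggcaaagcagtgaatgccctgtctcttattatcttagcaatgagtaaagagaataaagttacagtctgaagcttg
H2-Aa: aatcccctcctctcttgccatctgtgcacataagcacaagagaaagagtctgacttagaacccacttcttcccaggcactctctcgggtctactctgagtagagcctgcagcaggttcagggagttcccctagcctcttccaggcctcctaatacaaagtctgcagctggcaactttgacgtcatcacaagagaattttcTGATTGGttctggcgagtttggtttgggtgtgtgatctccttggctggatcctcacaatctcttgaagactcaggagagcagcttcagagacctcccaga
The element was found in 3 of the 5 class II genes with a promoter in that table and in 8.995% of all 27025 promoters. Among MHC class I genes it was found in 2 of 4.

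H2-Eb1, a beta chain of class II, had 19.2, 14.5, 16.9 and 23.2 CPM on LF and 47.5, 76.9, 58.2 and 94.5 on AMLN. H2-Aa, an alpha chain, had 20.5, 16.3, 25.8 and 25.0 CPM on LF and 46.0, 80.6, 59.9 and 101 on AMLN, and Cd74, the invariant chain that carries class II through the cell, had 59.2, 51.6, 35.4 and 52.7 CPM on LF and 118, 219, 161 and 172 on AMLN. In all 3 the diets were apart, AMLN 1 was the lowest AMLN liver, and AMLN 4 was highest for H2-Eb1 and H2-Aa and AMLN 2 for Cd74. The rises were 1.91 (SE 0.26), 1.71 (SE 0.27) and 1.75 (SE 0.25) on the log2 scale (adjusted p = 0.0227, 0.0316 and 0.0316, edgeR QL, Benjamini-Hochberg). H2-Ab1, the partner chain of H2-Aa, had 21.5, 15.4, 31.2 and 36.4 CPM on LF and 54.6, 79.3, 57.1 and 106 on AMLN and a log2 fold change of 1.51 (SE 0.31), just outside the threshold (adjusted p = 0.0530, edgeR QL, Benjamini-Hochberg). Class I genes did not share the direction: 5 of 19 are listed, 4 were lower and H2-Q1 was higher, at 31.3, 18.98, 15.7 and 13.3 CPM on LF and 29.6, 48.4, 54.9 and 17.9 on AMLN with overlap. The edgeR test called 0 of the class I genes, with 4 lower and 1 higher at an unadjusted p under 0.05, and DESeq2 called 1 raised and 0 lowered. None of H2-Eb1, H2-Aa and Cd74 was called without LF 2, LF 4, AMLN 2 or AMLN 3 (edgeR, Benjamini-Hochberg adjusted p up to 0.115).

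Lysosome genes were split, with 20 of 65 listed, 15 higher, 5 lower and 3 raised. Ctss, a lysosomal protease that trims the invariant chain, had 9.99, 7.44, 17.9 and 14.6 CPM on LF and 33.7, 43.5, 37.0 and 54.2 on AMLN. Laptm5, a lysosomal membrane protein of blood cells, had 7.01, 8.599, 7.24 and 9.02 CPM on LF and 14.8, 23.8, 24.3 and 15.2 on AMLN. AMLN 4 was highest for Ctss, and the diets were apart in both genes. Their log2 fold changes were 1.76 (SE 0.29) and 1.29 (SE 0.24) (adjusted p = 0.0318 and 0.0467, edgeR QL, Benjamini-Hochberg). Hmox1, which breaks down heme, was the raised gene among 19 listed NRF2 and glutathione genes, 11 of them higher and 8 lower. It had 9.61, 10.2, 8.29 and 11.2 CPM on LF and 18.7, 23.7, 25.9 and 26.1 on AMLN and rose by 1.26 (SE 0.21) on the log2 scale (adjusted p = 0.0316, edgeR QL, Benjamini-Hochberg). None of Ctss, Laptm5 and Hmox1 was called without LF 1, LF 2, LF 4, AMLN 1, AMLN 2 or AMLN 3 (edgeR, Benjamini-Hochberg adjusted p up to 0.162).

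Genes of lipid uptake and storage were mixed, with 15 of 30 listed, 11 higher, 4 lower and 4 raised (Cidec, Plin4, Lpl and Cd36). Their sum, most of it Fabp1, was 2971, 3603, 6296 and 5284 CPM on LF and 4289, 2716, 2775 and 3656 on AMLN. Cidec, which fuses lipid droplets, had 24.5, 25.7, 12.2 and 31.0 CPM on LF and 166, 86.5, 127 and 44.3 on AMLN. AMLN 1 and AMLN 3 were far above AMLN 4, which was still above all LF livers. Plin4, a coat protein of droplets, had 12.1, 15.7, 9.05 and 8.22 CPM on LF and 31.8, 45.3, 47.1 and 30.5 on AMLN, and Cd36, a receptor for fatty acids and for thrombospondin 1, had 149, 153, 132 and 129 CPM on LF and 253, 339, 341 and 298 on AMLN, neither with overlap. Cidec rose by 2.18 (SE 0.40), Plin4 by 1.78 (SE 0.26) and Cd36 by 1.13 (SE 0.20) on the log2 scale (adjusted p = 0.0441, 0.0316 and 0.0406, edgeR QL, Benjamini-Hochberg). Cidea, a relative of Cidec, had 8.07, 0.145, 0.292 and 0.743 CPM on LF and 40.2, 20.8, 34.2 and 4.61 on AMLN, with overlap of LF 1 and AMLN 4, and was not called (log2 fold change 3.43, SE 1.01, adjusted p = 0.106, edgeR QL, Benjamini-Hochberg). Pparg, the receptor that drives adipocyte genes, was not called, at 1.004. The 4 lower members were Lipc, Fabp2, G0s2 and Fabp1, none called. Lipc, the hepatic lipase, had 182, 183, 229 and 203 CPM on LF and 105, 122, 98.5 and 144 on AMLN without overlap, and Fabp1, the fatty acid carrier of hepatocytes, had a log2 fold change of -0.70. Of 14 adipocyte markers 5 are listed (Plin4, Cidec, Pparg, Cidea and Fabp4), all 5 were higher and 2 were raised. These markers summed to 58.8, 53.9, 35.9 and 51.7 CPM on LF and 274, 174, 238 and 101 on AMLN. Which cells their RNA came from was not tested. None of Cidec, Plin4, Cd36 and Lpl was called without LF 2, LF 4, AMLN 2 or AMLN 3, and Cidec, Plin4 and Cd36 not without AMLN 1, and Cidec and Cd36 not without LF 1 (edgeR, Benjamini-Hochberg adjusted p up to 0.148).

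Sterol genes divided by role. Of the genes for sterol export 6 of 16 are listed and all 6 were higher, with a median log2 fold change of 0.98. Abcg5, a transporter of cholesterol into bile, had 72.0, 60.0, 60.1 and 57.6 CPM on LF and 108, 163, 126 and 129 on AMLN without overlap and was raised (1.08, SE 0.20 on the log2 scale, adjusted p = 0.0467, edgeR QL, Benjamini-Hochberg). Its partner Abcg8 had 65.6, 74.9, 36.7 and 71.3 CPM on LF and 106, 151, 107 and 98.1 on AMLN, also without overlap, and Abcg1, which exports cholesterol from macrophages, had 2.87, 3.14, 1.63 and 3.34 CPM on LF and 8.07, 7.36, 5.80 and 9.26 on AMLN. Neither passed, at log2 fold changes of 0.89 (SE 0.26) and 1.47 (SE 0.30) (adjusted p = 0.104 and 0.0525, edgeR QL, Benjamini-Hochberg), nor did Soat1 and Abca1, at 1.11 and 0.50. Genes of cholesterol synthesis and uptake were mostly lower, 7 of 9 listed. Stard4, a sterol carrier induced when cholesterol is low, had 46.1, 45.8, 47.3 and 37.5 CPM on LF and 13.1, 23.4, 20.6 and 22.996 on AMLN without overlap and was lowered, at a log2 fold change of -1.14 (SE 0.22) (adjusted p = 0.0476, edgeR QL, Benjamini-Hochberg). Cyp51, a demethylase of the pathway, had a log2 fold change of -1.16 (SE 0.24) and was not called (adjusted p = 0.0567, edgeR QL, Benjamini-Hochberg). Msmo1 and Tm7sf2 were not called either, at -1.09 and -0.83. Neither Abcg5 nor Stard4 was called without LF 1, LF 2, LF 4, AMLN 1, AMLN 2 or AMLN 3 (edgeR, Benjamini-Hochberg adjusted p up to 0.162).

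Genes of fatty acid and triglyceride synthesis were higher in all 11 tested of 12 listed, with a median log2 fold change of 0.82, but 0 were called by the edgeR test against 8 at an unadjusted p under 0.05 and 7 by DESeq2. Scd1, the desaturase that makes oleic acid, had 6966, 4052, 3429.7 and 2483 CPM on LF and 16773, 28522, 20508 and 4806 on AMLN. AMLN 4 lay below LF 1, while AMLN 1 to AMLN 3 were above every LF liver, and the log2 fold change was 2.06 (SE 0.46) (adjusted p = 0.0621, edgeR QL, Benjamini-Hochberg). Gpat3, an acyltransferase of triglyceride synthesis, had 8.55, 10.2, 6.89 and 8.97 CPM on LF and 14.6, 18.997, 23.2 and 18.3 on AMLN without overlap and a log2 fold change of 1.12 (SE 0.23). Scd2, Acaca and Lpin1 were not called, at 1.45, 1.06 and 0.92.

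Collagen genes were higher without passing the test. Of 11 listed collagen genes 10 were tested and all were higher, 0 were called by edgeR, 9 had an unadjusted p under 0.05 and DESeq2 called 7. Col1a1, the main chain of fibrillar collagen, had 3.93, 2.27, 0.584 and 1.06 CPM on LF and 13.4, 12.2, 28.0 and 0.861 on AMLN. Col3a1 had 16.8, 10.9, 15.5 and 9.66 CPM on LF and 30.2, 28.3, 42.6 and 15.4 on AMLN. The log2 fold changes were 2.79 (SE 0.81) and 1.14 (SE 0.31) (adjusted p = 0.104 and 0.0914, edgeR QL, Benjamini-Hochberg), and that of Col1a2 was 1.61. Without AMLN 4 alone, Col1a1, Col1a2 and Col3a1 were called raised (adjusted p = 0.0393, 0.0407 and 0.0444, edgeR, Benjamini-Hochberg). Tnc, the matrix glycoprotein tenascin C, had 0, 0, 0.234 and 0.159 CPM on LF and 0.934, 1.11, 1.31 and 0.990 on AMLN without overlap and was not called (3.45, SE 0.78 on the log2 scale, adjusted p = 0.0621, edgeR QL, Benjamini-Hochberg). Among 18 listed of 52 fibrosis genes all 17 tested were higher and Mmp12 was the raised gene. Stellate cell and fibroblast markers had 6 of 23 listed, all higher, with a sum of 44.6, 39.0, 33.1 and 28.5 CPM on LF and 84.8, 77.1, 133 and 39.96 on AMLN. None of them was called by edgeR, while 3 had an unadjusted p under 0.05 and DESeq2 called 4. Mmp12 was not called without LF 4 (adjusted p = 0.0594 by edgeR and Benjamini-Hochberg).

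Acute phase genes had 14 of 32 listed, 10 higher, 4 lower and 2 raised. Lcn2, which binds bacterial siderophores and is made by hepatocytes and neutrophils, had 9.03, 5.12, 6.13 and 3.55 CPM on LF and 90.2, 23.97, 30.5 and 17.7 on AMLN, with AMLN 1 far above the rest. Orm3, an orosomucoid gene with close paralogs, had 0.850, 1.45, 0.934 and 1.17 CPM on LF and 6.84, 7.07, 3.22 and 5.38 on AMLN, lowest in AMLN 3. The diets were apart in both genes, and the rises were 2.77 (SE 0.50) and 2.34 (SE 0.36) on the log2 scale (adjusted p = 0.0433 and 0.0316, edgeR QL, Benjamini-Hochberg). Lcn2 was the 1 neutrophil marker listed of 16, and S100a8 and S100a9 are not analysed here. Orm2 and Serpina3m were not called, at log2 fold changes of 1.82 and -0.68. Hamp, the iron hormone hepcidin, was lower without being called, at 477, 482, 1444 and 977 CPM on LF and 88.0, 67.5, 58.9 and 400.3 on AMLN, where AMLN 4 stood far above the other AMLN livers. Its log2 fold change was -2.46 (SE 0.63) (adjusted p = 0.0829, edgeR QL, Benjamini-Hochberg). Neither Lcn2 nor Orm3 was called without LF 2, LF 4, AMLN 1, AMLN 2 or AMLN 3 (edgeR, Benjamini-Hochberg adjusted p up to 0.115).

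Interferon-stimulated genes were 13 higher and 5 lower of 18 listed, and 2 were raised. Ubd, a ubiquitin-like protein induced by interferon gamma, had 1.17, 0.531, 1.34 and 1.49 CPM on LF and 3.67, 8.43, 8.23 and 8.91 on AMLN. Ifi27l2b had 9.08, 5.56, 5.02 and 6.21 CPM on LF and 30.0, 15.9, 16.0 and 14.3 on AMLN. Their rises were 2.69 (SE 0.41) and 1.56 (SE 0.30) on the log2 scale, with no overlap (adjusted p = 0.0316 and 0.0476, edgeR QL, Benjamini-Hochberg), and Irf8, at 1.43, was not called. Of 36 chemokine ligands 10 are listed, 5 of those tested were higher and 2 lower, and edgeR called 0, with 4 higher and 2 lower at an unadjusted p under 0.05 and 4 raised and 2 lowered by DESeq2. Cxcl9, an attractant of T cells, had 5.36, 4.93, 6.71 and 8.38 CPM on LF and 9.21, 34.7, 11.6 and 48.6 on AMLN without overlap and a log2 fold change of 2.03 (SE 0.48). Ccl2, the main attractant of monocytes, had 0, 1.01, 0.234 and 0 CPM on LF and 1.17, 1.40, 1.18 and 2.50 on AMLN and its receptor Ccr2 had 0.903, 0.242, 0.759 and 2.55 CPM on LF and 3.84, 3.04, 2.14 and 4.52 on AMLN, at log2 fold changes of 2.26 (SE 0.90) and 1.60 (SE 0.57). None of them was called, nor were Cxcl10 and Ccl9, at 0.98 and -1.14. Adjusted p-values of Cxcl9, Ccl2 and Ccr2 were 0.0685, 0.200 and 0.159 (edgeR QL, Benjamini-Hochberg). Of other genes the paper names, the neutrophil attractant Cxcl1, the macrophage marker Adgre1 and platelet pleckstrin (Plek) were at 0.99, 0.87 and 1.27 and not called (adjusted p = 0.292, 0.202 and 0.138, edgeR QL, Benjamini-Hochberg). Cxcl2 and Cxcl5, also neutrophil attractants, were too scarce to be tested, Cxcl2 with 0, 0, 0 and 0 CPM on LF and 0.467, 0.123, 0.223 and 0.0431 on AMLN and Cxcl5 with 0.372, 0, 0.701 and 0 CPM on LF and 0, 0, 0 and 0 on AMLN. Neither Ubd nor Ifi27l2b was called without LF 2, LF 4, AMLN 2 or AMLN 3, and Ifi27l2b not without AMLN 1 (edgeR, Benjamini-Hochberg adjusted p up to 0.136).

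Few T cell genes are listed. Themis, which sets T cell receptor signals during selection, had 5.10, 3.19, 6.36 and 6.15 CPM on LF and 15.3, 29.2, 11.7 and 13.2 on AMLN, highest in AMLN 2, and rose by 1.74 (SE 0.34) on the log2 scale (adjusted p = 0.0476, edgeR QL, Benjamini-Hochberg). Cd8a, a coreceptor, had 0.425, 0, 0 and 0 CPM on LF and 0.534, 1.11, 1.88 and 1.12 on AMLN and was not called (adjusted p = 0.103, edgeR QL, Benjamini-Hochberg), nor was Il2rb, at 1.73. Of 24 T and NK cell markers 5 are listed, summing to 16.0, 28.2, 60.7 and 46.7 CPM on LF and 20.8, 19.7, 10.1 and 17.2 on AMLN, and most of that sum is Zap70, a kinase with 15.0, 27.8, 59.7 and 46.0 CPM on LF and 19.5, 14.0, 5.61 and 13.01 on AMLN whose log2 fold change was -1.51 (SE 0.44). EdgeR called 0 of them, 2 were higher and 1 lower at an unadjusted p under 0.05, and DESeq2 called 2 raised and 1 lowered. Cd3e and the other CD3 chains are not in the table and are not analysed here. Themis was not called without LF 1, LF 2, LF 4, AMLN 1, AMLN 2 or AMLN 3 (edgeR, Benjamini-Hochberg adjusted p up to 0.162).

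Further raised genes belong to none of these groups. Adam11, a catalytically inactive member of the ADAM family known from neurons (ENSMUSG00000020926, chr11:102761439-102780262 of mm10, forward strand), had 8.92, 7.68, 6.95 and 9.44 CPM on LF and 38.9, 29.5, 36.8 and 33.1 on AMLN. The livers of each diet were close together, the gap between the diets was wide, and the log2 fold change was 2.07 (SE 0.21) (adjusted p = 0.00590, edgeR QL, Benjamini-Hochberg), the lowest adjusted p of the table. Ephb2, a receptor tyrosine kinase and the longest called gene, had 0.425, 0.145, 0.467 and 0.531 CPM on LF and 16.0, 2.75, 7.75 and 1.12 on AMLN. Hcar2, a receptor for nicotinic acid and ketone bodies, had 0, 0.193, 0.117 and 0 CPM on LF and 1.80, 1.73, 0.733 and 1.64 on AMLN, lowest in AMLN 3 on the AMLN diet. Gm19619, a noncoding gene of unknown function, had 0.266, 0.870, 2.04 and 1.70 CPM on LF and 8.14, 6.95, 7.08 and 5.17 on AMLN. Their log2 fold changes were 4.14 (SE 0.79), 4.13 (SE 0.78) and 2.49 (SE 0.48) (adjusted p = 0.0467, 0.0467 and 0.0476, edgeR QL, Benjamini-Hochberg), with no overlap. Adcy3, an adenylyl cyclase, had at most 3 counts in every LF liver and 0.715 ± 0.138 CPM on AMLN (SD, n = 4), at least 4.5003-fold higher (adjusted p = 0.0389, edgeR QL, Benjamini-Hochberg). Adam11 was called without any 1 of the 8 livers. None of Ephb2, Hcar2, Gm19619 and Adcy3 was called without LF 2, LF 4, AMLN 1, AMLN 2 or AMLN 3, and Ephb2, Hcar2 and Adcy3 not without LF 1, and Hcar2 not without AMLN 4 (edgeR, Benjamini-Hochberg adjusted p up to 0.162).

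Mitochondrially encoded genes made up most of the summed fall of the called genes. All 26 listed genes of the mitochondrial genome were lower on AMLN, 10 were lowered, and the median log2 fold change was -1.28. mt-Co1, the catalytic subunit of cytochrome c oxidase and the most counted gene of the table (ENSMUSG00000064351, chrM:5328-6872 of mm10, forward strand), had 56388, 40729, 39836 and 40251 CPM on LF and 14097, 21362, 19355 and 21881 on AMLN. LF 1 was highest, AMLN 1 was lowest, and no AMLN liver came near the LF range. mt-Cytb, of the bc1 complex, had 21348, 16306, 15049 and 14326 CPM on LF and 4524, 7810.4, 7632 and 7449.9 on AMLN, and mt-Nd6, which is transcribed from the other strand of the circle, had 4339, 3353, 3640.01 and 3009 CPM on LF and 861, 1491, 1419 and 1486 on AMLN, both lowest in AMLN 1. mt-Co1 fell by 1.21, mt-Cytb fell by 1.29 and mt-Nd6 fell by 1.45 on the log2 scale (adjusted p = 0.0316, 0.0333 and 0.0316, edgeR QL, Benjamini-Hochberg). Log2 fold changes of mt-Nd1, mt-Nd2, mt-Nd4, mt-Nd4l and mt-Nd5, subunits of complex I, were -1.11, -1.03, -1.27, -1.16 and -1.15. The sum over the 26 genes was 138833, 101604, 101748 and 96804 CPM on LF and 35135, 52813, 49309 and 54041 on AMLN. mt-Co3 and mt-Atp6 were lowered too. The TSP1F/F table lists 9 mitochondrially encoded genes, 7 of them shared, and all were higher on AMLN there. Of these 9, 8 are transfer RNA genes and the other is mt-Nd3, which was not among the called genes. The 10 lowered genes are not among the 9, so their direction in TSP1F/F livers is not known here. None of these 10 called genes was called without LF 2, LF 4, AMLN 1, AMLN 2 or AMLN 3, and all but mt-Co1, mt-Cytb, mt-Nd6, mt-Nd1 and mt-Nd4 not without LF 1, and mt-Atp6 not without AMLN 4 (edgeR, Benjamini-Hochberg adjusted p up to 0.165).

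Nuclear copies of these genes moved with them. A stretch of chromosome 1 holds 7 listed unprocessed pseudogenes that match mitochondrial genes at 99.7 to 100% identity over their aligned length, and all 7 were lower. Gm29216, a copy of mt-Co1 at chr1:24615706-24616197 of mm10 with 99.8% identity, had 373, 194, 290.3 and 178 CPM on LF and 54.5, 89.9, 79.6 and 79.5 on AMLN. Gm28437, a copy of mt-Co3 identical over 783 bases, had 455, 318, 426 and 309 CPM on LF and 110.3, 162, 149 and 172 on AMLN, beside 809, 415, 658 and 397 CPM on LF and 137, 204, 189 and 277 on AMLN for mt-Co3 itself. The diets were apart in all 3, and Gm29216 and Gm28437 were lowered, with log2 fold changes of -1.77 (SE 0.28) and -1.35 (SE 0.23) (adjusted p = 0.0316 and 0.0370, edgeR QL, Benjamini-Hochberg). Gm10925, Gm28438 and Gm28661 were also lowered, with log2 fold changes of -1.26, -1.62 and -1.17, and Gm28439 and Gm10222 were not called, at -1.09 and -1.10. How reads were divided between the copies and the mitochondrial genes is not given in the sources used here, so their levels are uncertain. None of these 5 called genes was called without LF 2, LF 4, AMLN 1, AMLN 2 or AMLN 3, and Gm28437, Gm10925 and Gm28661 not without LF 1, and Gm28661 not without AMLN 4 (edgeR, Benjamini-Hochberg adjusted p up to 0.149).

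Genes of the cytosolic ribosome shared 1 direction. All 75 listed ribosomal protein genes were lower on AMLN with library totals (with TMM 1 was higher), 35 had no overlap, and 72 of the 75 are absent from the TSP1F/F table. The median log2 fold change was -1.11. For comparison, 744 of all 1511 listed protein-coding genes lower on AMLN had no overlap. Of the 1463 tested among them, 1320 had an unadjusted p under 0.05 by edgeR. Promoters of Rpl35 and Rpl38 are shown as 2 of the 3 with both elements searched: CCGGAAG, the core bound by ETS factors, searched on both strands of the 300 bases, and CTTTCC, part of the pyrimidine stretch at which their transcripts start, searched on the gene's strand in the 20 bases around the start. Both windows are in GRCm38.p6 from RefSeq, for Rpl35 chr2:39005082-39005381, reverse strand and for Rpl38 chr11:114668330-114668629, forward strand, with the matches in capitals.
Rpl35: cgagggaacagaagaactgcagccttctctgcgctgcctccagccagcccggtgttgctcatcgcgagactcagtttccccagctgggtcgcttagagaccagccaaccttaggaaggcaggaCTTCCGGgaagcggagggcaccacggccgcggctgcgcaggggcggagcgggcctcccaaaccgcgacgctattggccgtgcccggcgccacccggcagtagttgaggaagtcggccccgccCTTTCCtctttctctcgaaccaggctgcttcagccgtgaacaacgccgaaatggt
Rpl38: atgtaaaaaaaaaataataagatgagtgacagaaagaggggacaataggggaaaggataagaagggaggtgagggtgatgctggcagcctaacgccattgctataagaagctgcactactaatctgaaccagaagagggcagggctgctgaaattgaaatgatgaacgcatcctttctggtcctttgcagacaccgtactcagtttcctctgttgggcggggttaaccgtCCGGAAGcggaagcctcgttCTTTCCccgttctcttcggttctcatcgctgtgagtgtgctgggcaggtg
CCGGAAG was found in 23 of 55 ribosomal protein genes with a promoter (41.8%), against 9.93% of all 27025 promoters. It was found in 14 of 36 genes of the mitochondrial ribosome (38.9%), 16 of 62 nuclear genes of the respiratory chain (25.8%) and 4 of 18 proteasome genes (22.2%). CTTTCC lay at the start of 8 of 55 ribosomal protein genes (14.5%), of 0 genes in the other 3 groups, and of 0.995% of all promoters.

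Rps14, a protein of the small subunit, had 911, 981, 2619 and 1144 CPM on LF and 306, 269, 278 and 536 on AMLN. LF 3 was far above the other LF livers and AMLN 4 above the other AMLN livers, and still the diets did not overlap. Rps14 fell by 2.03 on the log2 scale (SE 0.37, adjusted p = 0.0441, edgeR QL, Benjamini-Hochberg) and was the called gene of the group, of which 73 had an unadjusted p under 0.05 and DESeq2 called 39. Rpl35 and Rpl38, whose promoters are given above, had 89.9, 90.1, 278 and 128 CPM on LF and 49.4, 38.0, 39.98 and 76.1 on AMLN and 40.05, 51.2, 112 and 62.4 CPM on LF and 29.1, 20.7, 21.8 and 37.7 on AMLN. The same 2 livers were highest on their diets in both, and the log2 fold changes were -1.53 (SE 0.38) and -1.28 (SE 0.33) (adjusted p = 0.0793 and 0.0812, edgeR QL, Benjamini-Hochberg), with -1.89 for Rps21. Ribosomal protein genes summed to 16344, 18178, 40204 and 22876 CPM on LF and 11508, 8736, 8719 and 15386 on AMLN, so the sum in LF 3 was the highest by a wide margin and AMLN 4 came close to LF 1. Without LF 3 the median of the group was -0.72, and without LF 3 and AMLN 4 together it was -0.89, a setting added after the data were seen. Rps14 was not called without LF 2, LF 4, AMLN 1, AMLN 2 or AMLN 3 (edgeR, Benjamini-Hochberg adjusted p up to 0.162).

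Ribosomal protein pseudogenes had the same direction as the listed ribosomal protein genes: all 43 tested of 47 listed were lower, with a median log2 fold change of -1.19, and 1 was lowered. The parents Rpl21, Rpl23a, Rpl7a and Rps10 are not listed, so their direction is not known here. Of the 47, 41 aligned to the gene they are named for over at least 80% of their length, with a median identity of 99.5%, so gene and copy cannot be told apart with certainty. Rpl17-ps3, which is 99.6% identical to Rpl17, had 197, 168, 339 and 191 CPM on LF and 54.3, 62.7, 59.0 and 103 on AMLN and fell by 1.68 on the log2 scale (adjusted p = 0.0409, edgeR QL, Benjamini-Hochberg). Rpl17 itself had 90.03, 92.1, 427 and 107 CPM on LF and 30.2, 33.6, 43.0 and 113 on AMLN. Its log2 fold change was -1.70 (SE 0.58) and it was not called (adjusted p = 0.143, edgeR QL, Benjamini-Hochberg), nor was Rps26-ps1, at -2.07. Without LF 3 the log2 fold change of Rpl17 was -0.81. Rpl17-ps3 was not called without LF 2, LF 4, AMLN 1, AMLN 2 or AMLN 3 (edgeR, Benjamini-Hochberg adjusted p up to 0.149).

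Nuclear genes of the respiratory chain and ATP synthase were all lower as well, 77 of 77 with a median of -0.96, 58 without overlap and 75 at an unadjusted p under 0.05. EdgeR called 0 of them after adjustment and DESeq2 called 40. Over all lower protein-coding genes, 744 of 1511 had no overlap, and 1320 of 1463 tested had an unadjusted p under 0.05 by edgeR. Ndufaf2, an assembly factor of complex I, had 14.3, 13.1, 23.9 and 19.2 CPM on LF and 6.64, 6.21, 6.15 and 9.43 on AMLN, with AMLN 4 the highest AMLN liver and below every LF liver. Atp5g1, the membrane ring subunit of ATP synthase, had 183, 162, 207 and 168 CPM on LF and 94.9, 91.6, 85.4 and 106 on AMLN, and Cox4i1, a subunit of cytochrome c oxidase, had 619, 701, 1680.1 and 864 CPM on LF and 449.6, 339, 350.3 and 581 on AMLN. The log2 fold changes were -1.31 (SE 0.26), -0.93 (SE 0.19) and -1.17 (SE 0.33) (adjusted p = 0.0507, 0.0525 and 0.0953, edgeR QL, Benjamini-Hochberg), with -1.56 for Atp5l. Over the 77 genes the sum was 11180.1, 11967, 23974 and 13952 CPM on LF and 8175, 6673, 6519.7 and 9505 on AMLN, again with LF 3 highest and AMLN 4 highest among the AMLN livers.

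Mitochondrial ribosomal protein genes were lower in 39 of 40 (median -0.85), and proteasome genes in 19 of 20 (median -0.83). The former summed to 1571, 1714, 3456 and 2150 CPM on LF and 1273, 977, 941 and 1518 on AMLN. Proteasome genes summed to 1729, 1833, 3601 and 2488 CPM on LF and 1455, 1232, 1123 and 1771 on AMLN. LF 3 was highest in both sums, and AMLN 4 was the highest AMLN liver and exceeded LF 1 for proteasome genes. Without LF 3 the medians were -0.58 and -0.57. Mrpl52, a protein of the large mitochondrial subunit, had 69.6, 80.3, 132 and 83.0 CPM on LF and 39.2, 36.0, 33.2 and 50.2 on AMLN without overlap, while Mrps2, of the small subunit, was the 1 higher member, at 25.1, 24.3, 16.2 and 24.7 CPM on LF and 33.7, 32.3, 32.01 and 28.7 on AMLN. Psmb3, a subunit of the proteolytic core, had 108, 129, 176 and 164 CPM on LF and 76.4, 64.8, 65.9 and 97.3 on AMLN, and Psmd1, a scaffold of the regulatory particle, was the higher member, at 60.1, 71.3, 40.7 and 71.6 CPM on LF and 96.6, 95.3, 91.5 and 78.7 on AMLN. Log2 fold changes were -1.203 (SE 0.25), 0.49 (SE 0.20), -0.93 (SE 0.23) and 0.57 (SE 0.22), and the adjusted p-values were 0.0525, 0.218, 0.0783 and 0.187 (edgeR QL, Benjamini-Hochberg). Mrps16 and Psma2 stood at -1.30 and -0.78. In these 2 families edgeR called 0 genes. Unadjusted, 38 and 17 genes were lower and 1 in each family was higher at p under 0.05, and DESeq2 called 8 and 1 lowered and 1 in each raised.

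**Figure D2:**
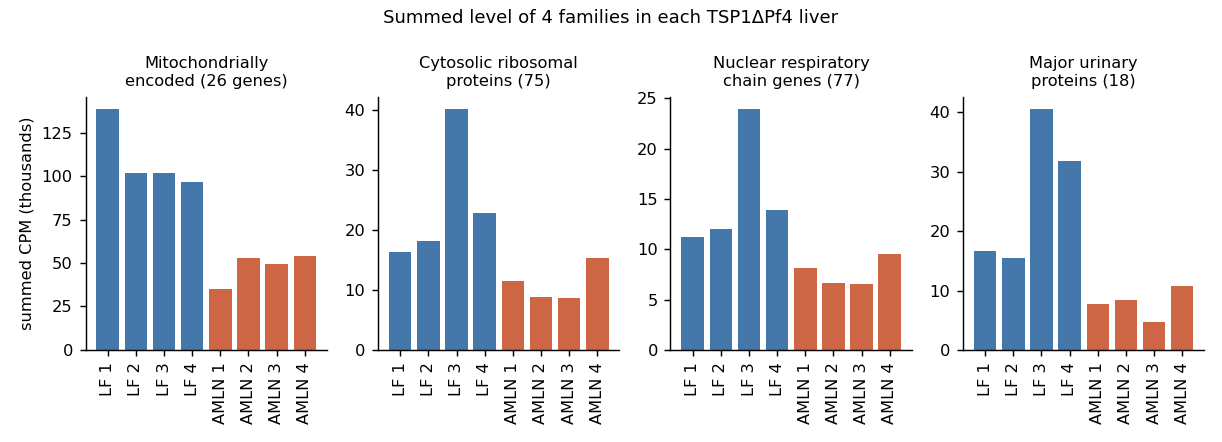
Summed CPM, scaled down on the vertical axis, of the listed genes of 4 families in each TSP1ΔPf4 liver, LF in blue and AMLN in red, 1 bar per liver. In the sum over mitochondrially encoded genes every LF liver exceeds every AMLN liver, from 109747 to 47824 CPM in the mean, and LF 3 is the highest bar for ribosomal proteins, respiratory chain genes and major urinary proteins.

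Major urinary proteins, pheromone carriers that the male liver secretes, were lower throughout: all 16 tested of 18 listed, with a median log2 fold change of -1.98 and 3 lowered. Mup20, a male signal to other mice, had 4523, 4588, 9556 and 6424 CPM on LF and 2112, 2311, 1389 and 2470.1 on AMLN, and Mup11 had 92.2, 52.2, 166 and 244 CPM on LF and 11.3, 21.4, 5.96 and 28.3 on AMLN. AMLN 3 was lowest in both, the diets did not overlap, and the log2 fold changes were -1.60 (SE 0.28) and -3.05 (SE 0.55) (adjusted p = 0.0406 and 0.0415, edgeR QL, Benjamini-Hochberg). Mup-ps19, a pseudogene 95.1% identical to Mup20, had 407, 469.5, 968 and 477 CPM on LF and 183, 175, 82.1 and 209 on AMLN and was lowered too (-1.84, SE 0.35, adjusted p = 0.0474, edgeR QL, Benjamini-Hochberg), while Mup3 and Mup19 were not called, at -1.54 and -5.02. The sum over the family was 16707, 15442, 40626 and 31795 CPM on LF and 7808, 8424, 4736 and 10834 on AMLN. These genes lie in an array of near-identical copies, and their separate levels are uncertain. None of Mup20, Mup11 and Mup-ps19 was called without LF 2, LF 4, AMLN 1, AMLN 2 or AMLN 3 (edgeR, Benjamini-Hochberg adjusted p up to 0.162).

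Of 41 genes that growth hormone keeps high in males 19 are listed. The 9 tested outside the major urinary proteins were all lower, with a median of -1.16, and 1 was lowered (Nat8). Hsd3b5, a steroid dehydrogenase of the male liver, had 81.2, 61.5, 142 and 55.8 CPM on LF and 4.30, 3.08, 0.797 and 25.97 on AMLN. It was not called, at a log2 fold change of -3.33 (SE 0.83) (adjusted p = 0.0779, edgeR QL, Benjamini-Hochberg). Cyp2d10 was the lowered gene among 24 listed cytochrome P450 genes, 19 of 21 tested being lower and Cyp4f18 and Cyp2b9 higher. It had 1209, 1299, 1759 and 1644 CPM on LF and 600.2, 661, 566 and 855 on AMLN and fell by 1.14 on the log2 scale (adjusted p = 0.0467, edgeR QL, Benjamini-Hochberg). Rdh16f2, a retinol dehydrogenase, had 114, 111, 250.4 and 142 CPM on LF and 29.7, 29.2, 32.5 and 66.7 on AMLN, and Nat8, an acetyltransferase of cysteine conjugates, had 33.8, 35.7, 78.3 and 64.4 CPM on LF and 14.5, 18.01, 9.88 and 18.9 on AMLN. They changed by -1.97 and -1.79 on the log2 scale without overlap (adjusted p = 0.0415 and 0.0415, edgeR QL, Benjamini-Hochberg). None of Cyp2d10, Rdh16f2 and Nat8 was called without LF 2, LF 4, AMLN 1, AMLN 2 or AMLN 3 (edgeR, Benjamini-Hochberg adjusted p up to 0.163).

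Hepatocyte genes were lower in most cases. Of 30 hepatocyte markers 15 are listed, 13 were lower, Hnf4a and Fga were higher, and the median was -0.63, close to that of all tested genes. G6pc, the phosphatase that releases glucose, had 346, 320.2, 283 and 367 CPM on LF and 169, 125, 146 and 189.5 on AMLN and was lowered (-1.06, SE 0.21, adjusted p = 0.0476, edgeR QL, Benjamini-Hochberg). Neither Hnf4a, the nuclear receptor that maintains hepatocyte identity, nor Serpina3k was called, at 0.60 and -1.15. The summed level of the markers was 63862, 63406, 92383 and 68358 CPM on LF and 45522, 34436, 37222 and 48437 on AMLN, with Apoa1 the most counted. Gnmt, which uses up methyl groups of S-adenosylmethionine, was the lowered gene among 15 listed genes of amino acid metabolism, 14 of them lower (Agxt -0.84, Cth -0.94) and Csad higher. It had 2404, 2735, 4403 and 3017 CPM on LF and 1271, 1311, 869 and 1433 on AMLN, with AMLN 3 lowest, and fell by 1.36 on the log2 scale (adjusted p = 0.0409, edgeR QL, Benjamini-Hochberg). Apom, which carries sphingosine 1-phosphate in lipoproteins, had 159, 209, 296 and 272 CPM on LF and 88.2, 81.4, 72.2 and 116 on AMLN and fell by 1.39 (adjusted p = 0.0435, edgeR QL, Benjamini-Hochberg). Klkb1, plasma prekallikrein, had 276, 256, 312 and 238 CPM on LF and 103, 142, 133 and 148 on AMLN and was the lowered gene among 22 listed complement and coagulation genes, 17 of them lower (log2 fold change -1.04, SE 0.20, adjusted p = 0.0482, edgeR QL, Benjamini-Hochberg). None of G6pc, Gnmt, Apom and Klkb1 was called without LF 2, LF 4, AMLN 1, AMLN 2 or AMLN 3, and G6pc and Klkb1 not without LF 1 (edgeR, Benjamini-Hochberg adjusted p up to 0.183).

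Outside these groups, Leap2, a liver hormone that opposes ghrelin at its receptor (ENSMUSG00000036216, chr11:53422181-53423170 of mm10, reverse strand), had 55.6, 62.8, 169 and 68.8 CPM on LF and 20.1, 9.05, 13.6 and 17.4 on AMLN. LF 3 was above the other LF livers by a wide margin, and all AMLN livers were below all LF livers. Tff3, a trefoil peptide of mucous epithelia, had 5.74, 5.41, 12.6 and 8.22 CPM on LF and 2.20, 1.93, 1.24 and 1.68 on AMLN, and Cela1, an elastase-like protease, had 17.2, 20.9, 59.7 and 32.7 CPM on LF and 7.81, 6.95, 7.88 and 11.6 on AMLN. Their log2 fold changes were -2.56, -2.18 and -1.93 (adjusted p = 0.0316, 0.0316 and 0.0476, edgeR QL, Benjamini-Hochberg). S100a13, a small calcium-binding protein, had 32.03, 29.6, 53.9 and 33.2 CPM on LF and 19.7, 10.9, 9.50 and 14.4 on AMLN, and Snrpd2, a core protein of the spliceosome, had 48.6, 46.8, 88.6 and 51.1 CPM on LF and 22.4, 18.8, 19.6 and 29.8 on AMLN, with LF 3 highest in both. Their log2 fold changes were -1.45 (SE 0.29) and -1.38 (SE 0.26) (adjusted p = 0.0485 and 0.0467, edgeR QL, Benjamini-Hochberg). None of these 5 called genes was called without LF 2, LF 4, AMLN 1, AMLN 2 or AMLN 3, and S100a13 and Snrpd2 not without LF 1, and S100a13 not without AMLN 4 (edgeR, Benjamini-Hochberg adjusted p up to 0.175).

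Immediate early genes, which respond within minutes to stimuli, were lower in 9 of 11 listed, with Fosl2 and Klf6 higher. Nr4a1, an orphan nuclear receptor, had 17.0, 10.4, 6.95 and 7.96 CPM on LF and 2.60, 2.63, 2.04 and 4.44 on AMLN, highest in LF 1. It fell by 1.86 on the log2 scale without overlap (adjusted p = 0.0475, edgeR QL, Benjamini-Hochberg). Fos had 9.19, 18.3, 9.34 and 4.35 CPM on LF and 2.10, 4.44, 1.88 and 5.25 on AMLN, where AMLN 2 and AMLN 4 exceeded LF 4, and Ier2 had 55.1, 55.4, 43.4 and 38.8 CPM on LF and 25.7, 23.8, 23.8 and 37.3 on AMLN without overlap, and neither was called at log2 fold changes of -1.60 (SE 0.46) and -0.80 (SE 0.22) (adjusted p = 0.104 and 0.0951, edgeR QL, Benjamini-Hochberg). Noct, a phosphatase of NADPH with a daily rhythm and a deposited gene length of 10658 bases, had 35.6, 37.1, 20.3 and 27.4 CPM on LF and 7.41, 16.7, 7.84 and 9.86 on AMLN. It fell by 1.53 on the log2 scale (adjusted p = 0.04998, edgeR QL, Benjamini-Hochberg). Neither Nr4a1 nor Noct was called without LF 1, LF 2, LF 4, AMLN 1, AMLN 2 or AMLN 3, and Noct not without AMLN 4 (edgeR, Benjamini-Hochberg adjusted p up to 0.168).

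Direction followed gene length, the deposited length used by the authors for FPKM. Of 381 tested genes under 1 kb, 359 were lower on AMLN (94.2%), and the share fell through 82.1% of 577 genes of 1 to 2 kb, 64.8% of 897 of 2 to 4 kb and 33.0% of 869 of 4 to 8 kb to 17.0% of 365 over 8 kb. Median log2 fold changes ran from -1.12 through -0.78, -0.59 and 0.58 to 0.64. Higher genes had a median length of 5248 bases and lower genes 2086, and the called genes 3201 and 1123. Of the called genes, 35 of 47 lowered and 14 of 45 raised were under 2 kb. The gradient was also present outside the families above: in protein-coding genes outside the ribosomal, respiratory chain, mitochondrial and proteasome groups the shares lower were 91.7%, 78.5%, 61.4%, 30.5% and 14.9% in the same 5 classes. Over the 3089 genes Spearman's rho of length and log2 fold change was 0.51, a description across genes, which are not independent and share the 8 libraries.

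**Figure D3:**
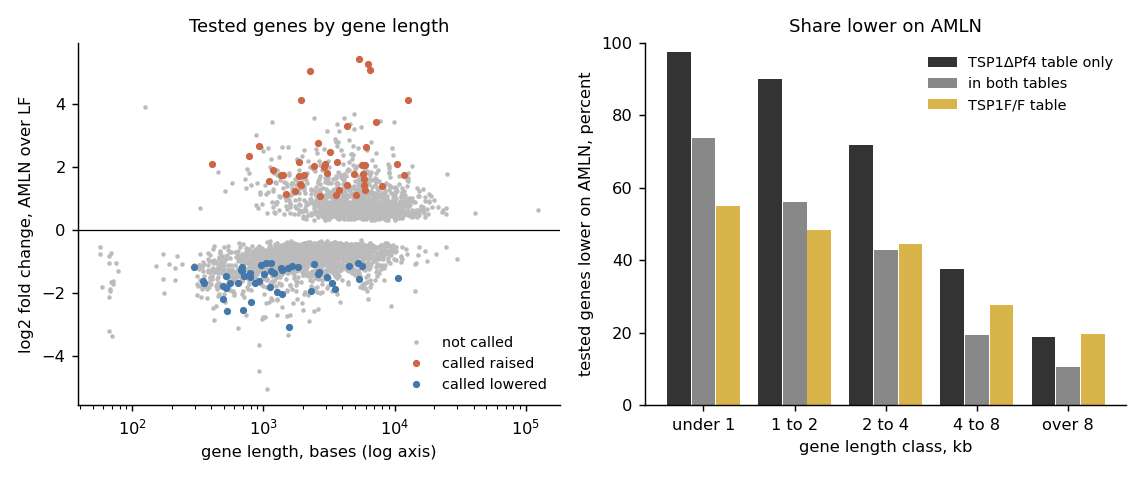
Left, log2 fold change of each tested gene against gene length (log axis), with raised genes in red and lowered genes in blue. Right, percent of tested genes lower on AMLN by length class, in genes of the TSP1ΔPf4 table alone (from 97.6% to 18.8%), in both tables, and in the TSP1F/F table.

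By biotype, 1292 tested protein-coding genes were higher and 1463 lower, with 42 raised and 36 lowered. Pseudogenes were lower in 166 of 184, and the 9 called were all lowered. Other noncoding genes were lower in 134 of 150, with 3 raised and 2 lowered. LincRNA genes were lower in 40 of 47, antisense genes in 39 of 42, and mitochondrial transfer RNA genes in all 12. Chrna1os, an antisense gene of 701 bases, had 5.26, 6.76, 17.98 and 11.5 CPM on LF and 1.70, 0.699, 1.88 and 2.93 on AMLN and fell by 2.52 on the log2 scale without overlap (adjusted p = 0.0467, edgeR QL, Benjamini-Hochberg). Since use of strand in counting is not given in the sources used here, an antisense gene and its partner cannot be told apart. AC121151.1 and Dnajc19-ps, both processed pseudogenes, had 4.14, 1.93, 4.32 and 1.80 CPM on LF and 0.434, 0.822, 0.670 and 0.560 on AMLN and 5.90, 8.02, 10.5 and 4.08 CPM on LF and 2.10, 2.43, 2.01 and 2.37 on AMLN, and their log2 fold changes were -2.29 (SE 0.45) and -1.68 (SE 0.33) (adjusted p = 0.0476 and 0.0476, edgeR QL, Benjamini-Hochberg). Gm26917, a noncoding gene, was lowered from 147 ± 56.6 to 46.0 ± 15.9 CPM (SD, n = 4), and Gm11695 was raised from 0.678 ± 0.2597 to 2.90 ± 0.556 CPM (SD, n = 4). None of these 5 called genes was called without LF 2, LF 4, AMLN 1, AMLN 2 or AMLN 3, and all but Chrna1os not without LF 1 or AMLN 4, and AC121151.1 and Dnajc19-ps not without LF 3 (edgeR, Benjamini-Hochberg adjusted p up to 0.162).

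Higher genes had a median of 12 exons in the transcript with most exons, lower genes 5, raised genes 8 and lowered genes 3. Of 236 tested genes with a single exon 91.1% were lower. Among single-exon protein-coding genes outside the mitochondrial genome 31 of 36 were lower. Unnamed gene models (Gm and Rik symbols) were lower in 238 of 283 tested with library totals and in 237 with TMM, and among them 3 were raised and 6 lowered.

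Livers of one diet also differed among themselves by gene length. As the median deviation from the mean of the same diet, genes under 1 kb stood at -0.32, -0.27, 0.62 and -0.01 on the log2 scale in LF 1 to LF 4 and at 0.06, -0.18, -0.21 and 0.31 in AMLN 1 to AMLN 4. Genes over 8 kb stood at 0.08, 0.09, -0.17 and 0.02 and at -0.07, 0.18, 0.13 and -0.25. Short genes were thus highest in LF 3 on the LF diet and in AMLN 4 on the AMLN diet, and long genes lowest in the same 2 livers. Without both of them, a setting added after the data were seen, edgeR called 380 genes raised and 660 lowered, which included all 92. The part of RNA quality or library preparation in this pattern was not tested.

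**Figure D4:**
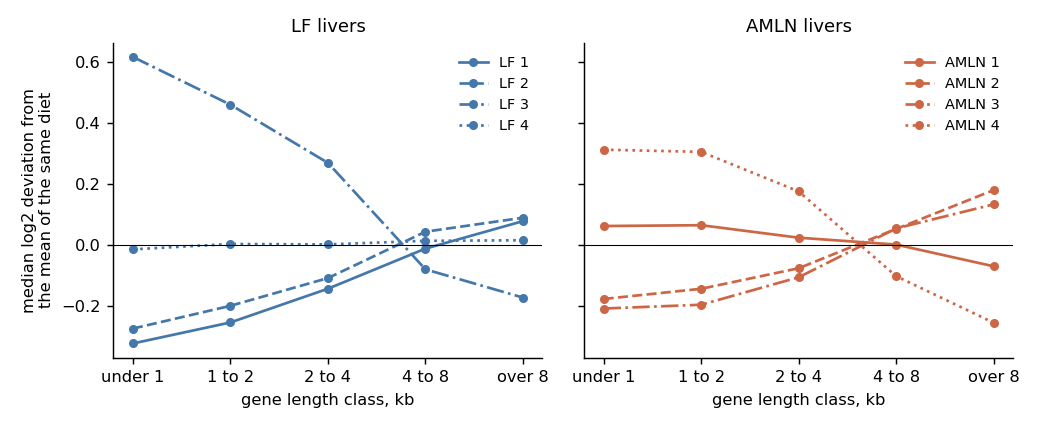
Median log2 deviation of tested genes from the mean of their diet (vertical axis) by gene length class (horizontal axis), 1 line per liver, LF livers on the left and AMLN livers on the right. LF 3 runs from 0.62 under 1 kb to -0.17 over 8 kb, and AMLN 4 from 0.31 to -0.25.

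The 2647 genes that are not in the TSP1F/F table were mostly lower. Of 2396 tested, 1509 were lower (63.0%, median -0.62), whereas of 693 tested genes in both tables, 439 were higher and the median was 0.78. Among the former 3 were raised (0.13%) and 38 lowered (1.59%), and among the latter 42 were raised (6.06%) and 9 lowered (1.30%). Morc4 and Gm10032 were among the 3 raised. Morc4, a chromatin protein of the MORC family, had 1.01, 0.725, 1.05 and 0.531 CPM on LF and 9.31, 2.80, 6.19 and 2.33 on AMLN, and rose by 2.64 (SE 0.50) on the log2 scale (adjusted p = 0.0467, edgeR QL, Benjamini-Hochberg). Gm10032, a noncoding gene, was at or under 3 counts in each LF liver and at least 3.84-fold higher on AMLN (adjusted p = 0.0415, edgeR QL, Benjamini-Hochberg). Neither Morc4 nor Gm10032 was called without LF 1, LF 2, LF 4, AMLN 1, AMLN 2 or AMLN 3 (edgeR, Benjamini-Hochberg adjusted p up to 0.148).

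The 38 lowered genes of this set are in large part those described above: the mitochondrially encoded genes with their nuclear copies, Leap2, Tff3, Rps14, Rdh16f2, Mup20, Gnmt, Nat8, Nr4a1 and Noct. Genes under 1 kb made up 20 of the 38. By length the shares lower among genes of the TSP1ΔPf4 table alone were 97.6%, 89.9%, 71.6%, 37.6% and 18.8% from the shortest class to the longest, and among genes in both tables they were 73.6%, 56.1%, 42.7%, 19.3% and 10.4%. Among tested genes of the TSP1F/F table the shares were 54.9%, 48.2%, 44.5%, 27.6% and 19.5%, and Spearman's rho of length and log2 fold change over its 2096 tested genes was 0.18. Whether these shares differ between the genotypes was not tested, since a gene absent from a table has no values there. Counts for the 38 moved with single livers: 25 without LF 1, 0 without LF 2, 70 without LF 3, 0 without LF 4, 0, 0 and 0 without AMLN 1, AMLN 2 and AMLN 3, and 82 without AMLN 4. For the 3 raised genes the counts in the same order were 1, 0, 13, 0, 0, 0, 0 and 18. DESeq2 called 615 raised and 324 lowered in this set, and TMM within edgeR 46 and 33. With TMM only 20 of the 38 lowered genes kept their call, against 3 of the 3 raised genes.

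Genes in both tables allow the diet response to be compared between the genotypes. Of the 752, 479 were higher on AMLN in both and 224 lower in both, 38 were lower in TSP1ΔPf4 and higher in TSP1F/F livers, and 11 the reverse. Of the 42 genes raised in TSP1ΔPf4 livers and listed in both tables, 14 were also called raised in TSP1F/F livers, where in all 50 genes were raised (2.39%) and 2 lowered (0.0954%). Called or not, 41 of the 42 were higher on AMLN in TSP1F/F livers, and 1 was not tested there. The 9 lowered genes in both tables were all lower in TSP1F/F livers, with 0 called lowered there. The interaction of diet and genotype was tested in 734 of the 752 genes. Its estimate, the TSP1ΔPf4 response minus the TSP1F/F response, was below 0 in 492 and above 0 in 242, with a median of -0.34. At an adjusted p under 0.05 (edgeR QL, Benjamini-Hochberg) 3 genes passed (0.409%), and at an unadjusted p under 0.05 110 (15.0%). These genes had been selected for a diet response in each genotype, and all 47 tested genes of opposite direction had an unadjusted interaction p under 0.05, the 3 among them. With the edgeR test adjusted over as many genes as the diet test, a setting added after the data were seen, 0 passed, against 44 by DESeq2 over the 734.

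The 3 genes were mt-Nd3, Neat1 and mt-Th. mt-Nd3, a subunit of complex I, had 48.9, 51.1, 172 and 57.5 CPM on LF and 16.6, 25.6, 25.4 and 29.8 on AMLN in TSP1ΔPf4 livers, with LF 3 far above the rest. In TSP1F/F livers it had 69.2, 51.8, 41.9 and 59.3 CPM on LF and 90.5, 167, 70.1 and 111 on AMLN. Neat1, a long noncoding RNA that builds nuclear paraspeckles, had 43.1, 31.5, 89.9 and 53.8 CPM on LF and 40.1, 15.5, 28.9 and 44.5 on AMLN in TSP1ΔPf4 livers, with overlap, and 64.4, 28.2, 19.8 and 58.8 CPM on LF and 223, 196, 134 and 158 on AMLN in TSP1F/F livers. mt-Th, the mitochondrial transfer RNA for histidine, had 4.46, 7.49, 26.6 and 7.32 CPM on LF and 1.63, 2.55, 1.94 and 4.44 on AMLN in TSP1ΔPf4 and 10.1, 2.79, 3.31 and 10.7 CPM on LF and 15.3, 33.8, 16.3 and 17.3 on AMLN in TSP1F/F livers. Log2 fold changes of mt-Nd3, Neat1 and mt-Th were -1.76, -0.76 and -2.12 in TSP1ΔPf4 and 0.98, 2.05 and 1.62 in TSP1F/F livers. The differences were -2.74 (SE 0.54), -2.81 (SE 0.58) and -3.74 (SE 0.80), with adjusted p = 0.0455, 0.0455 and 0.0495 (edgeR quasi-likelihood interaction test, Benjamini-Hochberg).

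Sacm1l, a phosphoinositide phosphatase, came next, with a difference of 1.78 (SE 0.40) that did not pass (adjusted p = 0.05005, edgeR, Benjamini-Hochberg), and Fos and Fosb were among the genes with the same adjusted p. Of the 42 genes raised in TSP1ΔPf4 livers and in both tables, edgeR called 0 for the interaction, 10 had an unadjusted p under 0.05, and the response was smaller in TSP1ΔPf4 livers for 29. Gpnmb and Mmp12 had interaction estimates of -2.61 (SE 1.12) and -2.69 (SE 1.16), and H2-Eb1 and Cd36 of -1.08 (SE 0.49) and 0.33 (SE 0.45). The count of 3 became 8 with the authors' size factors and 17 with TMM. It was 0 without TSP1F/F AMLN 4 and without LF 3, LF 4, AMLN 1, AMLN 2 or AMLN 3 of the TSP1ΔPf4 livers, and 13 without LF 1. Leaving out a TSP1F/F liver also moved it, to 12 without LF 2, 5 without LF 3 or LF 4, 6 without AMLN 1 and 24 without AMLN 2 of that genotype.

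**Figure D5:**
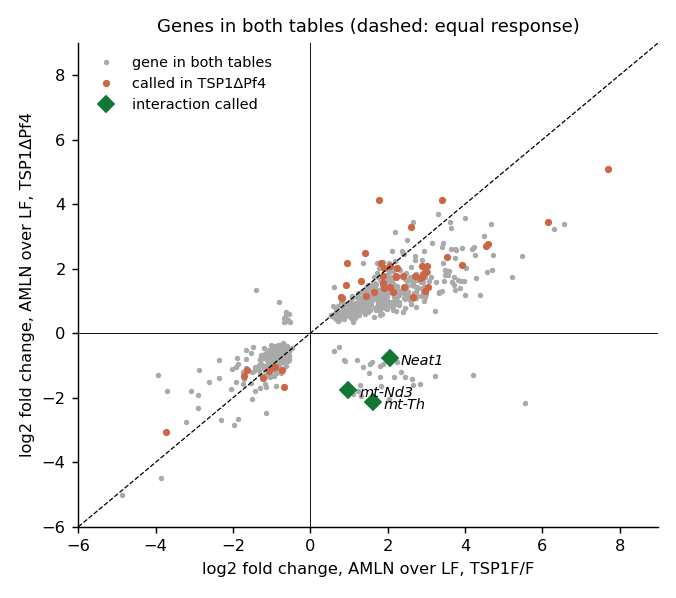
Log2 fold change of AMLN over LF in TSP1ΔPf4 livers (vertical axis) against that in TSP1F/F livers (horizontal axis) for genes in both tables, 1 point per gene, with genes called in TSP1ΔPf4 livers in red and the 3 genes called in the interaction test as green diamonds. Of all 752 genes 63.7% lie in the upper right part, 29.8% in the lower left, and mt-Nd3, Neat1 and mt-Th in the lower right.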

How the data were processed

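Liver RNA-seq of 8 TSP1ΔPf4 mice was used, with 8 TSP1F/F livers for the interaction alone. Paired reads of 150 bases from a NovaSeq were aligned to mm10, with STAR per the paper and with HISAT2 per the submitters' notes. The counting program, the annotation release and the strand setting are not given in the sources used here. The authors made each count as a raw number per gene, not scaled. For the signal the authors divided each count by a size factor of its library. The deposited FPKM are counts per length and library total, computed by the authors with the deposited gene length in bases. The p-value columns come from the authors' DESeq2 test of the diets and were read only to learn how the table was selected and how many genes were adjusted over, and the authors' fold changes were not used. All columns matched a mouse and 0 were unmatched.

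Library totals were computed from count, length and FPKM (17127965 to 31363462 in TSP1ΔPf4 livers), which limits scarce genes: 3 counts per library was the floor for folds. The filter was filterByExpr, and the test was the quasi-likelihood F test of edgeR 4.0.16 (limma 3.58.1, R 4.3.3; prior count 0.125), with Benjamini-Hochberg adjustment over 13927 genes, as many as the authors adjusted over. The interaction was adjusted over the genes tested. Tables and figures used Python 3.11.15, pandas 2.3.3 and matplotlib 3.10.9, and copies were aligned with Biopython 1.88. Promoters were matched by symbol to RefSeq (GRCm38.p6) for 2426 of 3399 genes, and 95.6% of the genes had the same coordinates in GENCODE for mm10. Alternatives were DESeq2 1.42.0, other scalings, filters, thresholds and adjustments, a replicate block and each liver left out, with 3 more added after the data were seen. DESeq2's size factors and TMM were computed over the listed genes alone. The fit was also run on simulated data, the outcome of which is not given here, and no result above rests on that run.

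Members and gene lists were chosen with earlier results of these data known. Genes named are the 10 largest rises and falls in log2 fold change among called genes of at least 1 CPM on a diet without overlap, up to 8 each among genes outside the TSP1F/F table, the 5 largest rises and falls in CPM, up to 4 genes of lowest p and any exception in each list described, genes the paper names, and the most abundant gene by FPKM per biotype with the shortest and longest called gene. Other genes named in the text, among them the parents of copies, members of small counts and partners of a named gene, were chosen after their values were seen.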

Additional observations from a re-analysis of the deposited data

Results flagged for a closer look

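Of 336 groups of 4 livers in named genes, 45 (13.4%) had 1 liver far from the other 3. Its gap to the nearest one took more of the group's range than Dixon's 95% limit for 4 values allows. That limit marks about 1 group in 20 of independent, normally distributed values. The named genes share the same 8 livers and some were chosen after their values were seen, so 1 in 20 is no reference for these groups. The liver apart was LF 3 in 16 groups, AMLN 4 in 9, LF 1 in 8, AMLN 1 in 7, LF 4 and AMLN 3 in 2 each and AMLN 2 in 1. With 3 livers at 0 the gap's share of the range is 1 at any level, as in 3 groups (Adcy3, Cd8a and Gm10032), which leaves 42. Each gene below is given with the CPM of the liver apart, the range of the other 3 livers of its diet and, in brackets, the gap as a share of the whole range.

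LF 3 stood above the other 3 LF livers in Adcy3 0.0584 against 0 to 0 (1), Apoc3 4538 against 2353 to 2715 (0.835), Ccl27a 19.97 against 8.99 to 9.87 (0.920) and Leap2 169 against 55.6 to 68.8 (0.884). In LF 3 the values above those of the other LF livers were Mup-ps19 968 against 407 to 477 (0.875), Ndufa5 120.4 against 68.1 to 72.8 (0.911), Rpl17 427 against 90.03 to 107 (0.949) and Rpl17-ps3 339 against 168 to 197 (0.830). Also above the rest in LF 3 were Rpl37a 339 against 177 to 202 (0.843), Rps14 2619 against 911 to 1144 (0.864), Rps20 229.7 against 174 to 177 (0.948) and S100a13 53.9 against 29.6 to 33.2 (0.852). LF 3 was likewise above the others in Snrpd2 88.6 against 46.8 to 51.1 (0.895), mt-Nd3 172 against 48.9 to 57.5 (0.930) and mt-Th 26.6 against 4.46 to 7.49 (0.863). LF 3 stood below the other 3 LF livers in Mrps2 16.2 against 24.3 to 25.1 (0.908).

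AMLN 4 stood above the other 3 AMLN livers in Ccl27a 7.41 against 3.37 to 4.003 (0.844), Hamp 400.3 against 58.9 to 88.0 (0.915), Hsd3b5 25.97 against 0.797 to 4.30 (0.861) and Ier2 37.3 against 23.8 to 25.7 (0.859). In AMLN 4 the values above those of the other AMLN livers were Mpc1-ps 194 against 107 to 121 (0.831), Ndufaf2 9.43 against 6.15 to 6.64 (0.852), Rdh16f2 66.7 against 29.2 to 32.5 (0.912) and Rpl17 113 against 30.2 to 43.0 (0.845). Also above the rest in AMLN 4 were Rps14 536 against 269 to 306 (0.860).

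LF 1 stood above the other 3 LF livers in Cd8a 0.425 against 0 to 0 (1), Cidea 8.07 against 0.145 to 0.743 (0.925), Hba-a2 17.4 against 1.06 to 3.24 (0.867) and mt-Atp6 569 against 329 to 367 (0.840). In LF 1 the values above those of the other LF livers were mt-Co1 56388 against 39836 to 40729 (0.946), mt-Co2 663 against 400.3 to 434 (0.872), mt-Nd1 13542 against 9245 to 9536 (0.932) and mt-Nd2 14383 against 10422 to 10866 (0.888).

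AMLN 1 stood above the other 3 AMLN livers in Cd163 2.17 against 0.603 to 0.670 (0.957), Ifi27l2b 30.0 against 14.3 to 16.0 (0.890), Msln 3.74 against 0.925 to 1.38 (0.839) and Gpm6a 2.702 against 1.72 to 1.85 (0.867). AMLN 1 stood below the other 3 AMLN livers in Ubd 3.67 against 8.23 to 8.91 (0.869), mt-Cytb 4524 against 7449.9 to 7810.4 (0.890) and mt-Nd6 861 against 1419 to 1491 (0.885).

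AMLN 3 stood above the other 3 AMLN livers in Gpnmb 12.2 against 5.47 to 5.73 (0.962). AMLN 3 stood below the other 3 AMLN livers in Hcar2 0.733 against 1.64 to 1.80 (0.846). LF 4 stood above the other 3 LF livers in Gm10032 0.0531 against 0 to 0 (1). LF 4 stood below the other 3 LF livers in Stard4 37.5 against 45.8 to 47.3 (0.843). AMLN 2 stood above the other 3 AMLN livers in Abcg8 151 against 98.1 to 107 (0.835).

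The interaction test called mt-Nd3, Neat1 and mt-Th, with TSP1ΔPf4 minus TSP1F/F values of -2.74, -2.81 and -3.74 on the log2 scale (adjusted p = 0.0455, 0.0455 and 0.0495, edgeR QL, Benjamini-Hochberg). Without LF 3, LF 4, AMLN 1, AMLN 2 or AMLN 3 of the TSP1ΔPf4 livers, or AMLN 4 of the TSP1F/F livers, 0 genes passed that test. Each had been selected in both genotypes with opposite directions, and 0 passed with adjustment over as many genes as the diet test.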

How the results depend on the processing

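The counts of genes raised, lowered, raised outside the TSP1F/F table and lowered outside it, in this order, were 45, 47, 3 and 38, and the interaction count was 3. They were 1010, 366, 615 and 324 with DESeq2 (interaction 44), 169, 38, 46 and 33 with TMM (17), 44, 34, 3 and 30 with the authors' size factors (8), 825, 1362, 473 and 1174 with adjustment over the listed genes only, 49, 52, 6 and 42 with at least 10 counts in every library of a diet, and 45, 49, 4 and 39 with no filter. With totals that leave out mitochondrially encoded genes they were 66, 206, 8 and 174, and without LF 3 and AMLN 4 together 380, 660, 206 and 567, both added after the data were seen. Other fold thresholds, none or an absolute log2 fold change over 1, gave the same counts. TMM kept all 45 raised calls but only 24 of the 47 lowered calls, and 20 of the 38 outside the TSP1F/F table. With each liver left out in turn the ranges were 1 to 83, 0 to 103, 0 to 18 and 0 to 82, and 0 to 24 for the interaction, which was 0 with adjustment over as many genes as the diet test, also added later. The causes were not tested.

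Replicate numbers were tried as a block and gave 4, 0, 0 and 0 calls, and 1 for the interaction. Deviations of livers with the same number correlated at -0.08, 0.31, -0.50 and -0.06, and not every liver correlated best with its own number (LF 3 with AMLN 4, 0.68), so the numbers were not taken as pairs.

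No fold change of the 166 named genes turned its direction in any of these settings. DESeq2 added 69 of them to those called and ended 0 calls, TMM added 14 and ended 19, and the block ended 68. Genes had been selected on these mice and the test's dispersion comes from these same genes, a limit to all p-values. Library totals were recovered from FPKM rather than read from raw data. Aligner, annotation release and strand setting are uncertain, so the levels of copies, overlapping genes and antisense genes are uncertain. The depth leaves genes under about 1 CPM with few counts, and 310 genes could not be tested.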

Other observations

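Mesothelial markers are a group the text has not described. Of 11 markers 6 are listed in TSP1ΔPf4 livers and the 3 tested were all lower, whereas the TSP1F/F table lists 9, all higher. Msln, the surface protein mesothelin, had 5.58, 9.61, 1.40 and 1.22 CPM on LF and 3.74, 1.11, 0.925 and 1.38 on AMLN, with LF 1 and LF 2 above the other LF livers. Upk3b, a membrane protein of mesothelium, had 8.45, 8.79, 1.34 and 1.64 CPM on LF and 4.27, 0.946, 1.94 and 0.646 on AMLN, with the same 2 livers highest. The log2 fold changes were -1.31 (SE 0.67) and -1.36 (SE 0.71), neither called (adjusted p = 0.349 and 0.359, edgeR QL, Benjamini-Hochberg). Without LF 2 they were -0.61 and -0.96, and without AMLN 1 they were -1.97 and -2.08. In TSP1F/F livers they were 3.23 and 2.45, and the differences between the genotypes, -4.55 (SE 1.13) and -3.81 (SE 1.23), did not pass (adjusted p = 0.0537 and 0.0951, edgeR, Benjamini-Hochberg). These genes were chosen after their values were seen.

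Of 22 platelet and megakaryocyte markers, only Plek is listed, at 1.97, 0.580, 2.51 and 1.33 CPM on LF and 2.94, 3.58, 4.27 and 4.52 on AMLN, and it was not called (1.27, SE 0.42 on the log2 scale, adjusted p = 0.138, edgeR QL, Benjamini-Hochberg). Pf4 and Itga2b are not in the table and are not analysed here. Gapdh, often used as a reference gene, had 1.91, 1.21, 1.34 and 1.75 CPM on LF and 32.7, 0.863, 38.9 and 1.12 on AMLN, and AMLN 1 and AMLN 3 were many times higher than the other 6 livers. Its many processed copies make this level uncertain. Its log2 fold change was 3.57 (SE 1.03) and it was not called (adjusted p = 0.104, edgeR QL, Benjamini-Hochberg). Gm23935, annotated as a microRNA gene of 57 bases, was the most abundant listed gene by FPKM, at 2519.7, 4571, 3025 and 2398 CPM on LF and 2143, 1620.3, 2178 and 1409.7 on AMLN without overlap and a log2 fold change of -0.77 (SE 0.25).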
